A study of Mus musculus with 16 samples.

Results

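The mammalian circadian clock is represented here by 10 genes: Arntl (also called Bmal1), Clock and Npas2, which encode the activators, Per1, Per2, Per3 and Cry1, which encode repressors, Nr1d1 and Nr1d2, which encode the REV-ERB nuclear receptors, and Dbp, a clock-driven transcription factor. They were chosen by name as listed core clock genes, not by any measured value, from the 54752 genes of the count table. All 10 were found and all 10 were among the 19736 genes with enough counts to be tested. They were measured by RNA-seq in iWAT (inguinal white adipose tissue, a subcutaneous depot near the groin) of 16 mice on a C57BL/6J background, labelled as females aged 90 days. WT mice had no mutation. In Lepob/+ mice, 1 of the leptin gene's copies was null. SOD1G93A mice carried a high-copy transgene of mutant human SOD1 under the human SOD1 promoter, a model of amyotrophic lateral sclerosis, and SOD1G93A-Lepob/+ mice carried both. There were 4 libraries for each of the 4 genotypes, and no label ties libraries to litters or to a day. Mice were kept on a light-dark cycle, but no source used here gives the time of day at which fat was taken. The question asked of these genes was whether they differ by genotype, and whether they vary between mice in the way genes of opposite daily phase do.

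In the clock, the ARNTL protein pairs with CLOCK or with its relative NPAS2 and switches on genes that carry an E-box, among them the Per, Cry, Nr1d and Dbp genes. PER and CRY proteins return to block that pair, and the REV-ERB receptors repress Arntl, Clock and Npas2 through sites that ROR receptors also bind. In mouse tissues, fat included, transcripts of Arntl and Npas2 therefore peak at the other end of the day from Nr1d1, Dbp and Per3, while Cry1 peaks between them. Single samples taken at unknown hours give levels of these transcripts but neither a rhythm nor a phase.

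Promoter stretches of 4 members that held a match to a motif of these factors are shown to make such sites visible, and they were chosen after the matches were seen, not by the members' levels. They come from RefSeq (build GRCm38.p6), in which 9 of the 10 members had 13 windows of 300 bases, from 250 bases before to 50 bases after a transcription start. Capitals mark an E-box (CACGTG), an E-box variant (CACGTT, read on this strand as AACGTG), a D-box (TTATGTAA, also searched as TTACGTAA, bound by DBP, TEF, HLF and NFIL3) or a core of the ROR and REV-ERB site (TAGGTCA, also searched as TGGGTCA and as the form TAGGTTA). Each motif was searched on both strands, and no hits of different motifs overlapped. The Arntl stretches are chr7:113207498-113207518 and chr7:113207534-113207554 on the plus strand, both inside the first exon of the gene model. Per1 is chr11:69098699-69098947 on the plus strand, in the intron between the first exons of the longest gene model and just before the next exon. Per3 is chr4:151044666-151044915 and Cry1 is chr10:85185065-85185304, both on the minus strand and just upstream of the gene.
Arntl, first stretch: cggaaagTAGGTTAgtggtgc
Arntl, second stretch: cagaaagTAGGTCAgggacgg
Per1: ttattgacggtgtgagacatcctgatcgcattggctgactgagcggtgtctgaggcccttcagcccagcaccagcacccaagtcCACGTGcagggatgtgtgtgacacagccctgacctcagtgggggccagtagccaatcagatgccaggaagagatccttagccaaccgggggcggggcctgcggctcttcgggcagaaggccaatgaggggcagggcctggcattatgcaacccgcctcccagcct
Per3: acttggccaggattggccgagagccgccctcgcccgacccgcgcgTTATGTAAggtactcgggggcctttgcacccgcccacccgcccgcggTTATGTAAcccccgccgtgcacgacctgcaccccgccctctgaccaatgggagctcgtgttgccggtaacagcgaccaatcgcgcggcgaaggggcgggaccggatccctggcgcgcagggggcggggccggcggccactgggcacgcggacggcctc
Cry1: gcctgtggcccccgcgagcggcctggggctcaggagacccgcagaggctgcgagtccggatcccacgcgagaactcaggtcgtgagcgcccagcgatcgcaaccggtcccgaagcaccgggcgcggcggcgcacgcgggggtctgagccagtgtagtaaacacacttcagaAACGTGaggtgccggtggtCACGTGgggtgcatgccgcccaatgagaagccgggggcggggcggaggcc

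The ROR and REV-ERB core occurred in 7.81% of all 32851 promoter windows and, among the members, only in windows of Arntl. The E-box occurred in 7.15% of windows and was found in 1 window each of Per1, at -166 bases, and Cry1, at -60 bases. The E-box variant, in 4.68% of windows, was found at -79 bases in Cry1 and at -28 bases in Nr1d1. The D-box was the rarest of these, in 1.06% of windows, and Per3 held it at -205 and at -158 bases. A cAMP response element (TGACGTCA), present in 1.79% of windows, was found in none of the members' windows. These are matches of letters in short windows and do not show binding.

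The library totals ranged from 36795376 to 61886313 counts, and levels are given as CPM, the number of counts per megacount of a library after TMM scaling. The lowest level of a member, 1.07 CPM for Npas2, was in the deepest library, SOD1G93A replicate 3. Transcripts of mature adipocytes (8 of 8 tested, among them Adipoq and Plin1) were abundant in every library, with a summed level of at least 13650 CPM. In 6 libraries (WT replicates 1 and 2, Lepob/+ replicate 3, and SOD1G93A replicates 1, 2 and 4) genes of lymph node stroma, T cells and B cells were high, while in the SOD1G93A-Lepob/+ libraries the stroma list summed to between 7.05 and 46.7 CPM. Lepob/+ replicate 4 held 209400 CPM of skeletal muscle transcripts and WT replicate 3 held 5358 CPM, with at most 368 CPM in the others. The library labelled SOD1G93A-Lepob/+ replicate 3 had 0 counts of Xist and 1756 counts over the Y-linked genes, against its female label. With bulk tissue, fewer cells of a type and less RNA per cell cannot be told apart.

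In the GENCODE vM21 annotation of mm10, Arntl (ENSMUSG00000055116) is at chr7:113207465-113314126, Clock (ENSMUSG00000029238) is at chr5:76209868-76304792 and Npas2 (ENSMUSG00000026077) is at chr1:39193731-39363236. Of the repressors, Per1 (ENSMUSG00000020893) is at chr11:69095217-69109960, Per2 (ENSMUSG00000055866) is at chr1:91415982-91459324, Per3 (ENSMUSG00000028957) is at chr4:151003652-151044665 and Cry1 (ENSMUSG00000020038) is at chr10:85131700-85185064. Of the remaining members, Nr1d1 (ENSMUSG00000020889) is at chr11:98767932-98775333, Nr1d2 (ENSMUSG00000021775) is at chr14:18204054-18239127 and Dbp (ENSMUSG00000059824) is at chr7:45705088-45710203. The members spanned a wide range of abundance. Expressed as CPM per kilobase of exon and averaged over the 16 libraries, Nr1d1 was the most abundant (93.2 ± 24.4, SD), followed by Dbp (43.1 ± 14.9), each above the next gene in all 16 libraries. Nr1d2 (20.2 ± 5.03) and Per1 (19.0 ± 7.48) could not be ordered, with Nr1d2 higher in 8 of 16 libraries. Per3 (7.78 ± 2.60) was above Per2 (5.90 ± 2.45) in 15 libraries, and Per2 was above Cry1 (2.79 ± 0.993) in all 16. The activators were the scarcest, with Clock (1.72 ± 0.934) above Arntl (1.58 ± 0.615) in only 9 libraries, and Npas2 (0.962 ± 0.647) below Arntl in 14. Exons of Dbp share 539 bases, 18.01% of their length, with Sphk2 on the other strand, and those of Nr1d1 share 263 bases, 8.55%, with Thra on the other strand. The strand setting of the counting is not given in the sources used here, so reads in these stretches could belong to either gene.

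Between mice, the activators varied over the widest range. Npas2 (chromosome 1) differed 12.1-fold between the lowest and the highest library, Clock 5.71-fold and Arntl 4.97-fold, against 2.64-fold for Nr1d1 and 2.25-fold for Nr1d2. Relative to genes of similar abundance, the variance of all 10 members within genotypes (edgeR's dispersion over its trend) was above the median of all 19736 genes, which was 0.439 (7 of 10 members were above it with no filter on low counts). This ratio was 1.79 for Clock and 1.32 for Npas2, exceeded by 11.9% and 16.6% of all genes, and 0.475 for Nr1d1, exceeded by 46.5%. The share of genes above was 17.9% for Per1, 23.6% for Dbp, 24.0% for Per2, 27.7% for Per3, 32.1% for Arntl, 38.7% for Cry1 and 41.6% for Nr1d2.

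Arntl, which encodes the main partner of both CLOCK and NPAS2, was measured at 8.27, 13.7, 7.39 and 15.9 CPM in WT replicates 1 to 4. It was 20.2, 19.8, 12.3 and 16.02 CPM in Lepob/+ and 9.72, 13.3, 4.07 and 11.96 CPM in SOD1G93A. In SOD1G93A-Lepob/+ it was 6.66, 11.6, 11.6 and 7.13 CPM. The highest values were Lepob/+ replicates 1 and 2 and the lowest was SOD1G93A replicate 3, and the genotypes overlapped in each comparison made. Arntl had the smallest p of any member in the test of any difference among the 4 genotypes (edgeR quasi-likelihood, adjusted p = 0.697).

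Npas2, which can take the place of CLOCK, split the Lepob/+ mice into replicates 1 and 2 at 12.9 and 10.2 CPM and replicates 3 and 4 at 1.87 and 1.53 CPM. The same gene stayed between 3.60 and 4.96 CPM in WT and between 4.22 and 6.22 CPM in SOD1G93A-Lepob/+. In SOD1G93A it was 4.95, 2.26, 1.07 and 2.63 CPM. The 2 highest of the 16 libraries and 2 of the 3 lowest were thus Lepob/+. Of the low pair, replicate 3 was high in lymph node genes and replicate 4 held the muscle transcripts, and the part of either in Npas2 was not tested. Clock, which encodes the usual partner of ARNTL, had its highest value in SOD1G93A-Lepob/+ replicate 2 (51.0 CPM) and its lowest in SOD1G93A replicate 1 (8.93 CPM). Clock ranged from 18.6 to 42.6 CPM in WT, and the other genotypes spanned 11.4 to 33.4 CPM (Lepob/+), 8.93 to 38.5 CPM (SOD1G93A) and 11.7 to 51.0 CPM (SOD1G93A-Lepob/+).

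Dbp, a D-box transcription factor, was 118, 80.4, 222 and 135 CPM in WT, with replicate 3 far above the rest. It was 74.0, 82.7, 124 and 178 CPM in Lepob/+ and 96.1, 109, 218 and 106 CPM in SOD1G93A. In SOD1G93A-Lepob/+ it was 153, 121, 107 and 140 CPM. The low Dbp libraries, Lepob/+ replicates 1 and 2 and WT replicate 2, included the pair in which Arntl was highest. SOD1G93A replicate 3, lowest in Arntl and Npas2, had the second highest Dbp of the 16.

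Per1, Per2 and Per3 encode the PERIOD repressors, of which Per1 and Per2 also respond rapidly to hormones. Per3 was 152 CPM in SOD1G93A replicate 3 and 108 CPM in WT replicate 3 and lay between 49.9 and 84.1 CPM in the other 14 libraries. Per2 was 74.3 CPM in SOD1G93A replicate 3, 57.5 CPM in SOD1G93A-Lepob/+ replicate 4, and between 20.9 and 46.6 CPM elsewhere. Per1 ranged from 44.8 CPM in WT replicate 4 to 183 CPM in SOD1G93A-Lepob/+ replicate 4. Nr1d1 ranged from 178 CPM in SOD1G93A replicate 2 to 469 CPM in WT replicate 3. It was 178 to 248 CPM in the 6 libraries high in lymph node genes and 255 to 469 CPM in the other 10, so these sets of libraries did not overlap. Nr1d1 was the 1 member of 10 of which this was true, against 15.5% of all genes, and the part of lymph node content in its level was not tested. Nr1d2 ranged from 82.5 CPM in Lepob/+ replicate 2 to 186 CPM in Lepob/+ replicate 4. That last library is the one with muscle transcripts, and their part in its Nr1d2 value was not tested.

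**Figure D1:**
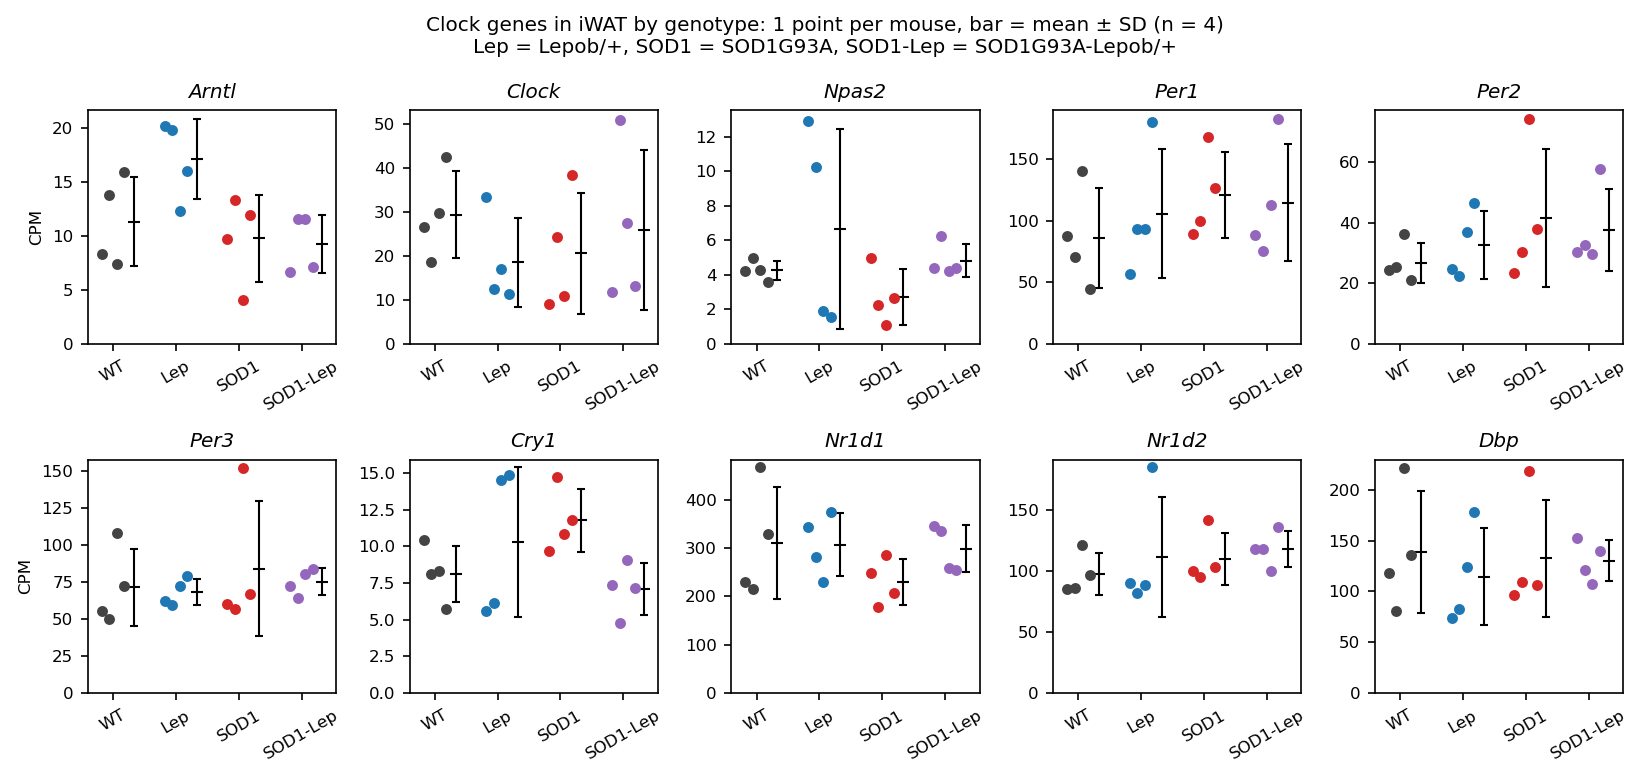
Level of each clock gene in CPM (linear axis from 0) by genotype, with 1 point per mouse and the mean ± SD of the 4 mice beside the points. Each genotype spans a wide range, as for Npas2 in Lepob/+ (1.53 to 12.9 CPM), and Cry1 in SOD1G93A lies wholly above Cry1 in SOD1G93A-Lepob/+.

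No clock gene passed the adjusted threshold of 0.05 in any of the comparisons, and neither did any of the 19736 genes (background 0% in each; edgeR quasi-likelihood test). In Lepob/+ against WT, 0 of 10 members had an unadjusted p under 0.05, against 4.37% of all genes, and 0 of 10 had groups that did not overlap, against 0.907%. The smallest p belonged to Arntl, with a mean of 17.1 ± 3.71 CPM (SD, n = 4) against 11.3 ± 4.16 CPM in WT and a log2 fold change of 0.59 ± 0.35 (SE, edgeR, adjusted p = 1.00). Clock was lower by the point estimate (-0.66 ± 0.55) and Npas2 higher (0.64 ± 0.59), neither beyond the spread between mice. Without Lepob/+ replicate 1 the values were -1.11 for Clock and 0.0953 for Npas2, and without Lepob/+ replicate 2 Npas2 was 0.36. The median log2 fold change of the 10 members was 0.24, against 0.03 for all genes.

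In SOD1G93A against WT, 0 of 10 members had an unadjusted p under 0.05, against 2.56% of genes, and 0 had groups that did not overlap, against 2.05%. Per2 had the smallest p, at 41.4 ± 22.7 CPM against 26.7 ± 6.61 CPM in WT, a log2 fold change of 0.63 ± 0.36 (SE, edgeR, adjusted p = 0.999). Without SOD1G93A replicate 3 its log2 fold change was 0.17. Nr1d1 was 230 ± 47.7 CPM against 311 ± 117 CPM (-0.44 ± 0.25), and Cry1 11.8 ± 2.14 CPM against 8.14 ± 1.92 CPM (0.53 ± 0.32). Without WT replicate 3 the value for Nr1d1 was -0.17. The median over the members was 0.05, and over all genes 0.02.

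In SOD1G93A-Lepob/+ against SOD1G93A, Cry1, whose protein is a strong repressor of the CLOCK and ARNTL pair, was the member that stood apart. It was 9.70, 14.7, 10.9 and 11.8 CPM in SOD1G93A and 7.35, 4.80, 9.05 and 7.19 CPM in SOD1G93A-Lepob/+, so the groups did not overlap. The log2 fold change was -0.73 ± 0.32 (SE, edgeR, adjusted p = 0.285), which did not pass the threshold. This was 1 of 10 members with an unadjusted p under 0.05, against 16.5% of all genes, and 1 of 10 with groups that did not overlap, against 7.18%. With the lymph node stroma score as a covariate 4.11% of genes had an unadjusted p under 0.05. So did 1 of 10 members, which was not Cry1. A count of 1 in 10 near these shares is not a result about the clock genes. DESeq2 on these genotypes alone gave Cry1 an adjusted p of 0.0381 and limma's voom with quality weights 0.0187, in fits that called 7.95% and 31.7% of all genes, while the adjusted p over all alternatives ran up to 1.00.

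Of the 4 SOD1G93A libraries, 3 were high in lymph node genes and none of the SOD1G93A-Lepob/+ libraries was. With the lymph node stroma score as a covariate the difference in Cry1 was -0.44 ± 0.35 (edgeR, adjusted p = 1.00). In the 1 SOD1G93A library low in these genes, replicate 3, Cry1 was 10.9 CPM, above all 4 SOD1G93A-Lepob/+ values. That is 1 library, and genotype and lymph node content cannot be told apart in this comparison. Nr1d1 was 299 ± 48.7 CPM against 230 ± 47.7 CPM (log2 fold change 0.38 ± 0.25), and with the same covariate its difference was -0.05. Npas2 was 4.81 ± 0.947 CPM against 2.73 ± 1.62 CPM (0.82 ± 0.59, and 1.28 without SOD1G93A replicate 1). The median over the members was -0.05, against 0.00 for all genes.

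The interaction term asks whether the Lepob/+ difference depends on the transgene. Cry1 was again the 1 member of 10 with an unadjusted p under 0.05, against 7.98% of genes: its Lepob/+ difference was 0.34 without the transgene and -0.73 with it, an interaction of -1.07 ± 0.45 (edgeR, adjusted p = 0.564). Within Lepob/+ the Cry1 values were far apart, 5.61 and 6.14 CPM in replicates 1 and 2 and 14.5 and 14.9 CPM in replicates 3 and 4. Clock (0.99 ± 0.77) and Arntl (-0.67 ± 0.50) followed and did not reach an unadjusted p of 0.05. Clock was 0.42 without SOD1G93A-Lepob/+ replicate 2 and 1.502 without SOD1G93A replicate 4. In the test of any difference among genotypes, 0 of 10 members had an unadjusted p under 0.05, against 6.15% of genes.

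**Figure D2:**
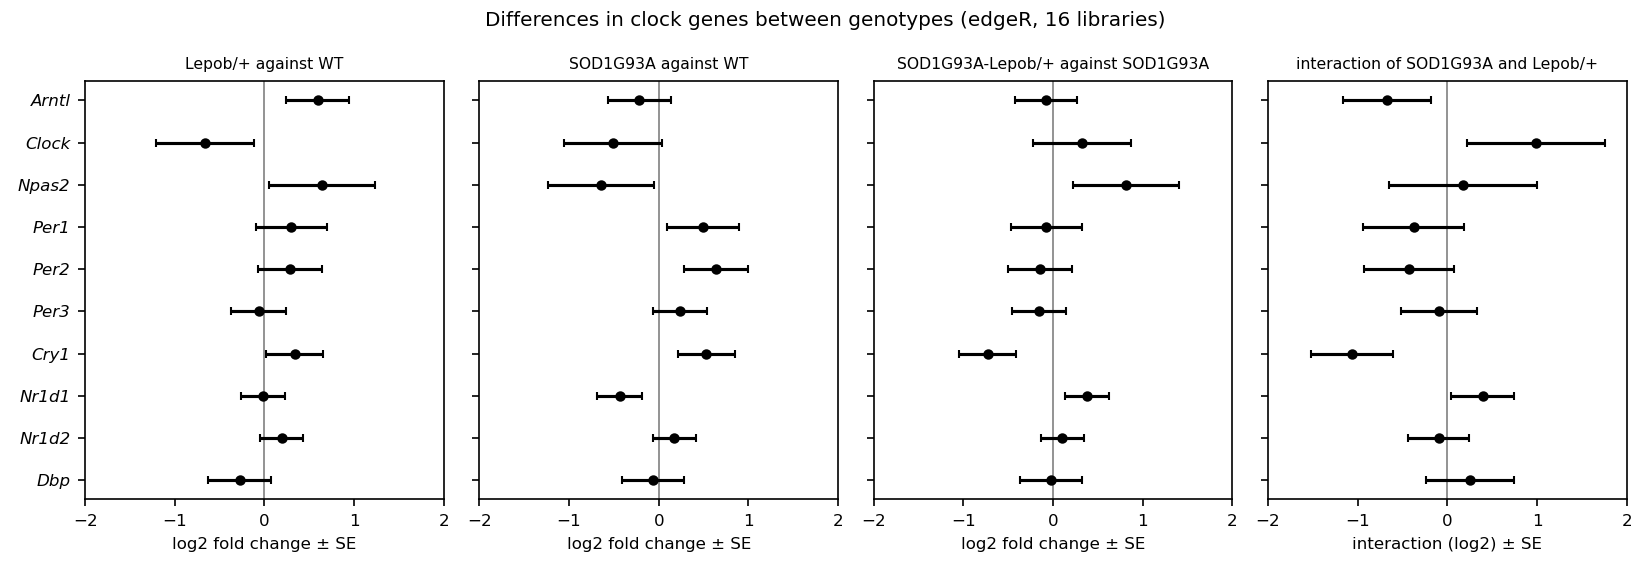
Difference in each clock gene (log2, horizontal axis) with its standard error for the 3 comparisons between genotypes and for the interaction, from 1 edgeR fit to 16 libraries. Cry1 in SOD1G93A-Lepob/+ against SOD1G93A (-0.73) and in the interaction (-1.07) lies farthest from 0 in units of its error, and all other points lie within 2 SE of 0.

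Across the 16 mice the members did not vary independently. Of the 45 pairs, 15 had a correlation of log2 CPM with a Benjamini-Hochberg adjusted permutation p under 0.05, 9 positive and 6 negative. A correlation of at least 0.5 in size was found in 46.7% of member pairs, against 24.3% of all 194744980 pairs of tested genes. At 0.6 the shares were 31.1% and 14.9%, and at 0.8 they were 4.44% and 2.99%. Many pairs of other genes were thus correlated too, and the share of all pairs that would be called was not computed. The sign followed the roles of the genes, except for Nr1d1. Pairs among Per1, Per2, Per3, Nr1d1, Nr1d2 and Dbp were positive in 15 of 15 cases (median r 0.64), pairs among Arntl, Clock and Npas2 in 3 of 3 (median r 0.32), and pairs of an activator with one of the other 6 genes were negative in 16 of 18 (median r -0.49). Nr1d1 was near 0 with the activators, with r = -0.07 for Arntl, 0.06 for Clock and 0.20 for Npas2 (adjusted permutation p 0.549 to 0.846), and also with Per1 (0.03) and Per2 (0.08). Clock was in none of the called pairs. Its r with Dbp was -0.17. Without SOD1G93A replicate 3, r was -0.03 for Clock with Dbp and 0.03 for Clock with Per3. The pairs share libraries and are not independent of each other.

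The closest positive pairs were Per1 with Per2 and Per3 with Dbp. For Per1 and Per2 Pearson's r was 0.82 (permutation p = 8e-05, adjusted 0.00202) and Spearman's rho 0.78 (permutation p = 0.00051). For Per3 and Dbp r was 0.82 (permutation p = 9e-05, adjusted 0.00202) and rho 0.75 (permutation p = 0.00105). Leaving out the 2 libraries farthest from the median of the first gene gave r = 0.77 and r = 0.67. Nr1d2 followed Dbp (r = 0.75, rho 0.72, adjusted permutation p = 0.0081) and Per2 (r = 0.76, rho 0.73, adjusted permutation p = 0.00825).

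Arntl ran against Dbp, with r = -0.68 (permutation p = 0.0038, adjusted 0.0198) and rho = -0.56 (permutation p = 0.0253, adjusted 0.0888). For Arntl with Per3 r was -0.66 (adjusted permutation p = 0.0235) and rho -0.44 (adjusted permutation p = 0.178). For Arntl with Per2 r was -0.62 (adjusted permutation p = 0.0336) and rho -0.41 (adjusted permutation p = 0.205). By rho, Npas2 with Cry1 was the 1 pair with an activator that passed. These relations rested in good part on the extreme libraries: without the 2 farthest from the Arntl median, r was -0.52, -0.40 and -0.43, none with an adjusted p under 0.05. Without SOD1G93A replicate 3 alone they were -0.56, -0.39 and -0.38, and the number of called pairs fell from 15 to 5.

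Npas2 ran against Cry1 more closely than Arntl ran against any member. Pearson's r was -0.77 (permutation p = 0.00049, adjusted 0.00735) and rho -0.80 (permutation p = 0.00034, adjusted 0.0103), and r was -0.81 without the 2 farthest libraries and -0.82 without SOD1G93A replicate 3. The 3 libraries with the highest Npas2, Lepob/+ replicates 1 and 2 and SOD1G93A-Lepob/+ replicate 2, held 3 of the 4 lowest Cry1 values, at 5.61, 6.14 and 4.80 CPM. Npas2 was also lower where Dbp was higher (r = -0.65, adjusted permutation p = 0.0235, and rho -0.56, adjusted permutation p = 0.0888), with r = -0.40 without the 2 farthest libraries. Cry1 itself had negative correlations with all 3 activators and positive ones with 5 of the other 6 members, the exception being Nr1d1 (r = -0.45, adjusted permutation p = 0.141).

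**Figure D3:**
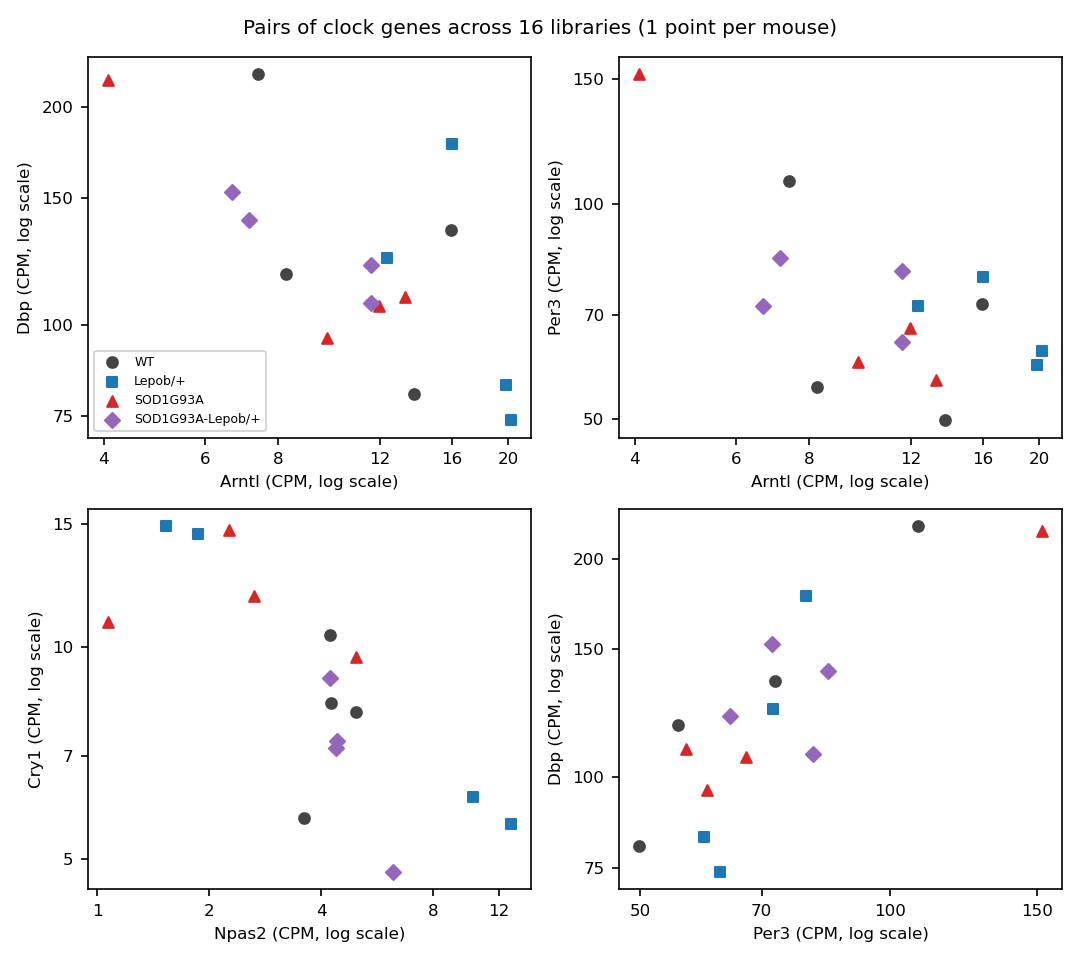
Level of 1 clock gene against another in the 16 libraries (CPM, both axes logarithmic), with colour and shape giving the genotype. Dbp and Per3 fall and Cry1 falls as the activator on the horizontal axis rises (r = -0.68, -0.66 and -0.77), Per3 and Dbp rise together (r = 0.82), and SOD1G93A replicate 3 lies at the far left of both Arntl panels.

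The correlations were also computed with differences between the genotype means removed and with SOD1G93A replicate 3 kept in. With each gene centred on the mean of its genotype, all 15 called pairs kept their sign and an adjusted permutation p under 0.05. Pairs of an activator with the other 6 genes were negative in 18 of 18 cases (median r -0.49), though at r = -0.33 for Nr1d1 with Arntl and -0.02 for Nr1d1 with Clock and with Npas2 (adjusted permutation p 0.309 to 0.948). The permutation did not allow for the genotype means removed by centring, so these p-values tend to be too low. Within the 10 libraries low in lymph node genes, Arntl with Dbp had r = -0.74 and Npas2 with Cry1 r = -0.79, and 12 of the 15 pairs still passed. Within the 6 libraries high in these genes, no pair passed (0 of 45): Npas2 with Cry1 had r = -0.94 (exact permutation p = 0.00972, adjusted 0.438), Arntl with Dbp -0.34, and Arntl with Per2 had the other sign at 0.49. The exact test on 6 libraries has too few orders for a lone pair to pass after adjustment, however close. The count of 0 therefore decides nothing about the pattern. By sign, pairs of an activator with the Per, Nr1d and Dbp genes were negative there in 9 of 18 cases (median r 0.0008). Pairs among the activators were positive in 1 of 3, and pairs among the Per, Nr1d and Dbp genes in 10 of 15. In the libraries low in lymph node genes these counts were 16 of 18, 3 of 3 and 13 of 15. Arntl spanned only 8.27 to 13.7 CPM among the 6 high libraries, against 4.07 to 20.2 CPM among the other 10. With Lepob/+ replicate 4 left out together with the library labelled SOD1G93A-Lepob/+ replicate 3, 13 of the 15 pairs passed.

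**Figure D4:**
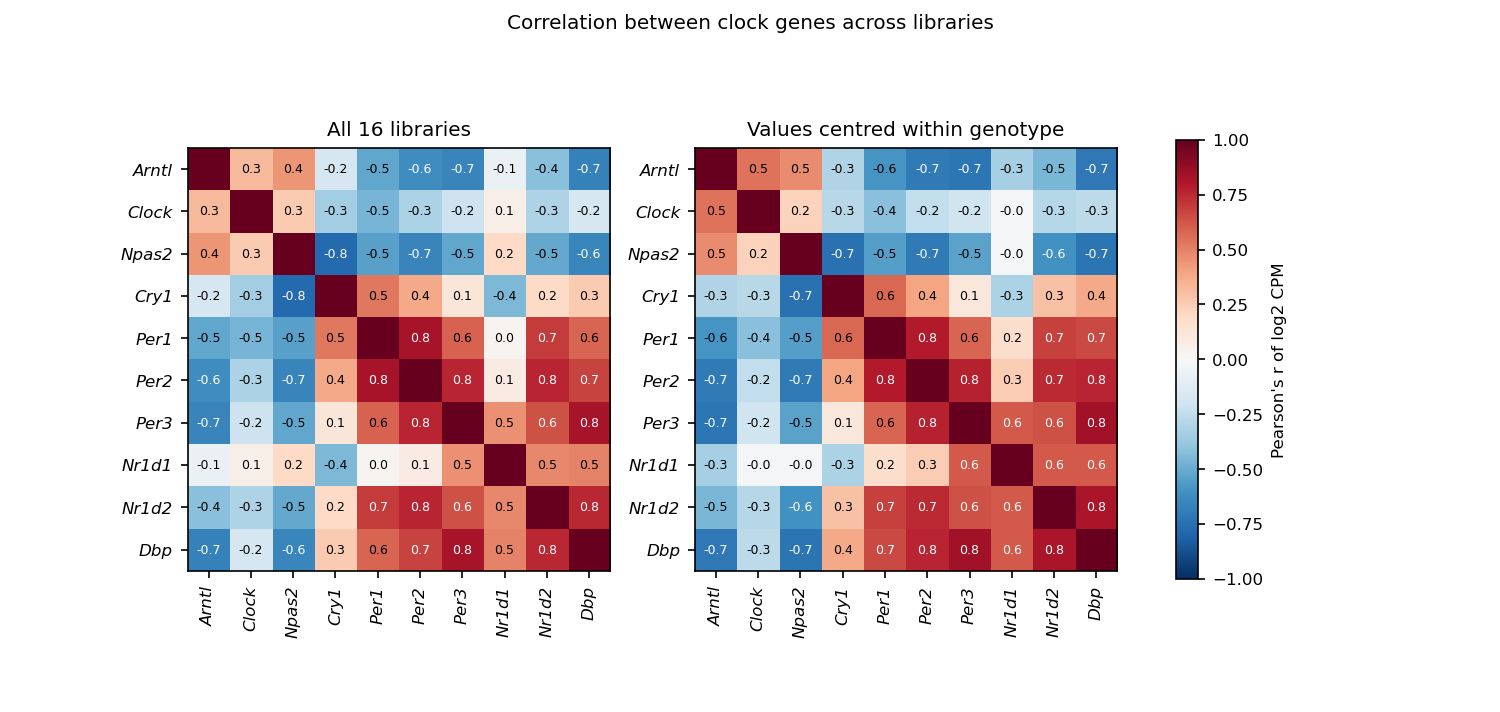
Pearson's r of log2 CPM for each pair of clock genes, over the 16 libraries as they are (left) and after centring on the genotype means (right), coloured from -1 to 1. The block of Per, Nr1d and Dbp genes is positive throughout, and its pairs with Arntl, Clock and Npas2 are negative in 16 of 18 cases on the left and 18 of 18 on the right, with Nr1d1 near 0 for Clock and Npas2.

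The ratio of Dbp to Arntl per kilobase gives the opposition in a single figure for each mouse. It was 9.19 in Lepob/+ replicate 1 and 10.5 in Lepob/+ replicate 2, the lowest, and 75.5 in WT replicate 3 and 135 in SOD1G93A replicate 3, the highest. Its median was 25.1 and its range 14.6-fold, or 8.21-fold without SOD1G93A replicate 3. By genotype WT spanned 14.7 to 75.5, Lepob/+ 9.19 to 27.9, SOD1G93A 20.7 to 135 and SOD1G93A-Lepob/+ 23.3 to 57.6, so all 4 ranges overlapped. Within WT alone the ratio differed 5.14-fold and within SOD1G93A 6.51-fold. Nr1d1 to Arntl ran from 32.7 to 172, and SOD1G93A replicate 3 was again the highest and WT replicate 3 the next.

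**Figure D5:**
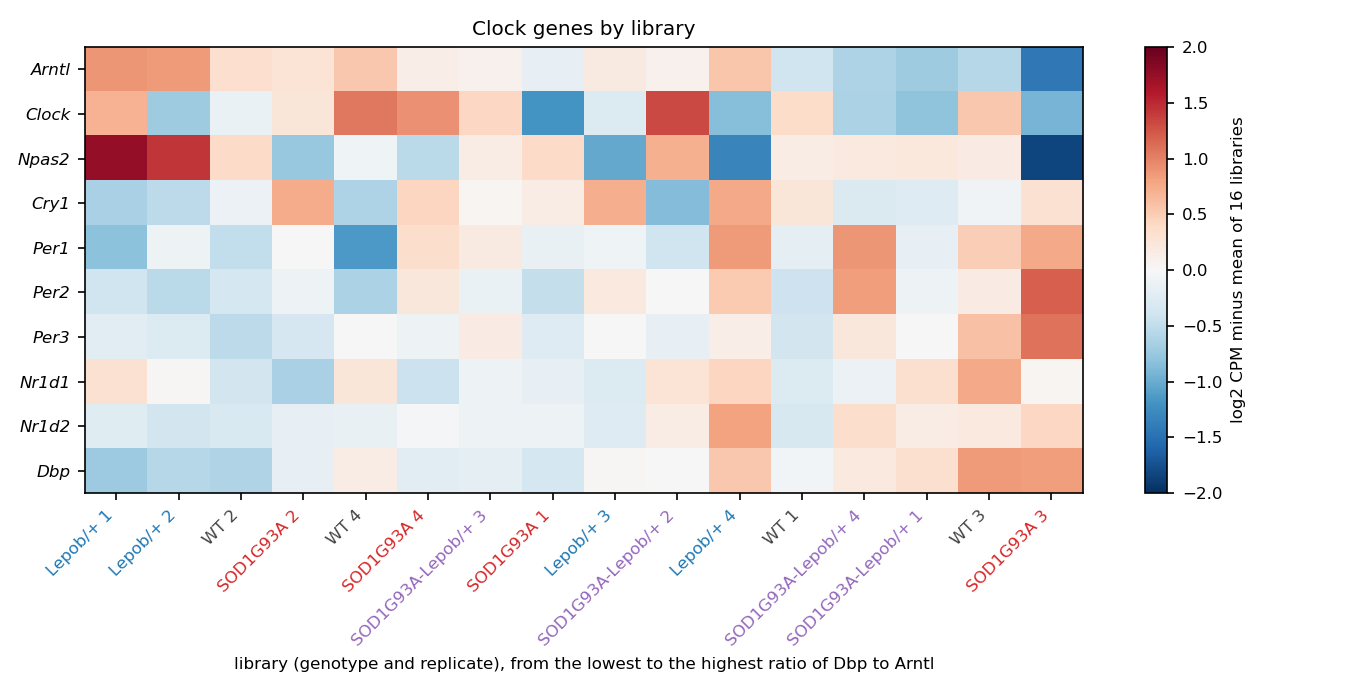
Clock genes (rows) in the 16 libraries (columns), as log2 CPM minus the mean of the gene, ordered from the lowest to the highest ratio of Dbp to Arntl, with label colour giving the genotype. Arntl falls and Dbp rises along the order by construction, Per3 is highest at its right end, and mice of each genotype are found at several places along the order.

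Whether the mice were sampled at different times of day was not tested, since no label gives a time. Arntl ran opposite to Dbp, Per3 and Per2 after centring on genotype, and no correlation of Nr1d1 with an activator passed. No pair passed among the 6 libraries high in lymph node genes, which are too few for a lone pair to pass. Pairs of an activator with the Per, Nr1d and Dbp genes were negative there in 9 of 18 cases. The libraries at the ends of the order came from Lepob/+, WT and SOD1G93A. Other measures moved with some members. Of 90 relations of a member with library depth, tissue content or a response list, 2 passed by Pearson's r, and neither of these passed by rho. The mean log2 CPM of 12 glucocorticoid and fasting response genes, such as Fkbp5 and Tsc22d3, rose with Per1 and with Nr1d2. With Per1 r was 0.75 (adjusted permutation p = 0.0382) and rho 0.68 (adjusted permutation p = 0.153). With Nr1d2 r was 0.78 (adjusted permutation p = 0.0382) and rho 0.61 (adjusted permutation p = 0.165). Without the 2 farthest libraries r was 0.60 and 0.46. For Per2 the value was 0.73 (rho 0.62, adjusted permutation p = 0.0808), while for Arntl it was -0.15 and for Dbp 0.34. Cry1 was lower where macrophage genes were higher (r = -0.70, rho -0.70, adjusted permutation p = 0.0808). The part of these measures in the pattern was not tested.

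Of the other 15 genes of the clock machinery, 0 of 15 passed in any comparison. By the point estimate 12 were higher and 3 lower in Lepob/+ than in WT, where 55.6% of all genes were higher. For SOD1G93A against WT 8 were higher and 7 lower, with 53% of all genes higher. For SOD1G93A-Lepob/+ against SOD1G93A 10 were higher and 5 lower, with 50.1% of all genes higher. Across mice, the D-box factor Hlf was the second most opposite to Arntl of all 19735 other genes (r = -0.83), at 11.2 and 10.7 CPM in Lepob/+ replicates 1 and 2 and 40.8 and 37.1 CPM in WT replicate 3 and SOD1G93A replicate 3. In the same ranking Dbp was the 122nd (r = -0.68), Per3 the 156th and Per2 the 233rd most opposite, while Per1 was at place 602, Nr1d2 at 1245, Cry1 at 4635 and Nr1d1 at 6848 (r = -0.07). Gys2, the liver-type glycogen synthase and a known clock output, was the 128th (r = -0.67). Tef, a further D-box factor, had r = 0.78 with Dbp, and Ciart, a repressor of the CLOCK and ARNTL pair, 0.71. Nfil3, which represses through the D-box, did not follow (r = 0.12 with Dbp).

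Over all genes, the 10 most opposite to Arntl were Ppp2r5a (r = -0.84), Hlf, Nrip1, Ndc1, Chpt1, Lctl, Plpp6, Ap3s1, Aldh1l1 and Fabp5 (-0.81). The 10 most like it were Gm37795 (r = 0.83), Iqgap3, Gm13303, Gm28068, Il15, 1110038F14Rik, Rsph1, Spi1, Fgd6 and 0610038B21Rik (0.75). For Dbp the most alike were Isca2 (r = 0.92), Mlxipl, Emc6, Ppp2r5b, Ywhag, Coq7, Eif4e3, Mrpl40, Grpel1 and Ndufab1 (0.85). The most opposite were Cmah (r = -0.89), Zc3h11a, Glipr2, Fchsd1, Rbm11, Abracl, ENSMUSG00000054178, Stac2, Far2 and Tnfsf18 (-0.79). These lists were not stable. Of the 20 genes for Arntl only 1 was found again after centring on the genotype, and of the 20 for Dbp 8.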

How the data were processed

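RNA was measured in 16 iWAT libraries. Per the labels and the study's methods the authors aligned reads with HISAT2 2.1.0 to mm10 and counted unique reads per gene with featureCounts 2.0.2; the annotation release and strand setting are not given in the sources used here, and the labels and methods name different library kits. The deposited values are raw counts for 54752 Ensembl genes, of which 54723 matched a symbol. Counts were tested with edgeR 4.0.16 (R 4.3.3; filterByExpr with a minimum count of 10 and total of 15, TMM, robust quasi-likelihood fit to all 16 libraries, 12 residual degrees of freedom), with Benjamini-Hochberg adjustment over 19736 genes and a threshold of 0.05. Log2 CPM values used a prior count of 1, and log2 fold changes come from the fit. CPM were scaled by TMM. Correlations used two-sided permutation tests with 100000 resamples (exact for 6 libraries), adjusted over 45 pairs or 90 relations (scipy 1.17.1). Coordinates and exon lengths come from GENCODE vM21. The scripts were tested on simulated data. DESeq2 1.42.0 and limma 3.58.1 (voom) served as alternatives, beside other filters, scalings, samples and covariates. Nothing says that libraries of a genotype came from separate litters, so p-values measure the spread between these mice. Libraries of a genotype differed well beyond counting noise (smallest chi-square per degree of freedom 43.6). No sample column was left unmapped. The members and lists were chosen with earlier results of these data known. All 10 members are named, as are the 10 genes most like and most opposite to Arntl and to Dbp. A result for 1 other gene is not reported here.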

Additional observations from a re-analysis of the deposited data

Results flagged for a closer look

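Of 40 sets of 4 values (10 clock genes in 4 genotypes), 5 held a library far from the other 3 by Dixon's test, where chance gives about 1 in 20. SOD1G93A replicate 3 was 1 of these for Per3 (152 CPM, with the other 3 at 56.7 to 67.0 CPM) and for Dbp (218 CPM, with the others at 96.1 to 109 CPM). Nr1d2 was 186 CPM in Lepob/+ replicate 4, the library with muscle transcripts, and 82.5 to 90.3 CPM in the others. Per2 was 57.5 CPM in SOD1G93A-Lepob/+ replicate 4, against 29.6 to 32.6 CPM. Npas2 was 6.22 CPM in SOD1G93A-Lepob/+ replicate 2, against 4.22 to 4.41 CPM.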

How the results depend on the processing

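The absence of a clock gene past the threshold held under every alternative except 2, both for SOD1G93A-Lepob/+ against SOD1G93A: voom called 2 clock genes (Cry1 and Nr1d1) and DESeq2 on the compared genotypes 1 (Cry1). The count over all genes depended on the tool. It was 0 with edgeR, and DESeq2 on all libraries gave 1, 3, 562, 51 and 19 for Lepob/+ against WT, SOD1G93A against WT, SOD1G93A-Lepob/+ against SOD1G93A, the interaction and the test of any difference. DESeq2 on the compared genotypes gave 5, 14 and 1771. Voom gave 6254 for SOD1G93A-Lepob/+ against SOD1G93A and 3 for any difference. edgeR on the compared genotypes, and the fit that left out Lepob/+ replicate 4 together with the library labelled SOD1G93A-Lepob/+ replicate 3, gave 2 each for SOD1G93A-Lepob/+ against SOD1G93A, and the latter 2 for any difference. Leaving out 1 library at a time gave 0 for Lepob/+ against WT, 0 to 1 for SOD1G93A against WT (1 without SOD1G93A replicate 4), and 0 to 3, 0 to 2 and 0 to 2 for the others (the highest without the library labelled SOD1G93A-Lepob/+ replicate 3).

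Under edgeR, 862, 505, 3261, 1574 and 1214 genes had an unadjusted p under 0.05 in these comparisons. The shared replicate numbers did not pair the mice by correlation (5 of 24 same-numbered pairs correlated over 0.1 and 8 under -0.1). Per3 was 49.9 to 64.1 CPM in the libraries numbered 2 and 72.2 to 152 CPM in those numbered 3. Per1 was 56.5 to 89.3 CPM in those numbered 1 and 93.5 to 168 CPM in those numbered 3. For Arntl, Clock, Npas2, Per2, Cry1, Nr1d1, Nr1d2 and Dbp the ranges of all replicate numbers overlapped. A difference by replicate number was not tested, and the share of all genes with such gaps was not computed. With the replicate block the counts of genes with an unadjusted p under 0.05 were 414, 385, 2692, 969 and 506. Cry1 in SOD1G93A-Lepob/+ against SOD1G93A was then -0.77 (edgeR, adjusted p = 0.364). Leaving out 1 library gave 341 to 2295, 217 to 1541, 1473 to 5635, 751 to 3258 and 730 to 3110 (the lowest without Lepob/+ replicate 4 for the first and SOD1G93A replicate 2 for the others, the highest without Lepob/+ replicate 3 for the first and last and SOD1G93A replicate 3 for the others), and the lymph node covariate took 3261 to 811.

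The number of members with more variance than the median gene, 10, was 7 with no filter and 9 with the lymph node covariate, without Lepob/+ replicate 4 together with the library labelled SOD1G93A-Lepob/+ replicate 3, and without WT replicate 2, WT replicate 3 or Lepob/+ replicate 4. Nr1d1 in SOD1G93A-Lepob/+ against SOD1G93A turned to -0.0481 with the lymph node covariate. Of the 28 fold changes not named, 22 changed sign under some alternative, none of them called. Called pairs numbered 15, against 6 by Spearman's rho, 7 without the 2 farthest libraries, 0 within the 6 libraries high in lymph node genes (too few for a lone pair to pass), and 5 to 19 leaving out 1 library (5 without SOD1G93A replicate 3). Within those 6 libraries 3 called pairs changed sign: Arntl with Per2 (0.49), Arntl with Per3 (0.0065) and Nr1d2 with Dbp (-0.0254). Of the 20 genes most like or opposite to Arntl, 1, 4 and 6 were shared after centring, without the 2 farthest libraries and by rho, and for Dbp 8, 4 and 7. The causes were not tested. With 4 mice a genotype the standard error of a member's log2 fold change was 0.24 to 0.59, and that of an interaction 0.34 to 0.83. Cry1 at -0.73 did not pass in the main fit, in which no gene passed whatever its difference. The simulated data used edgeR's trended dispersion, not the spread of each member. The size of difference that could have been detected in the members was not tested. A member that missed the threshold is therefore not shown to be unchanged.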
